A study of Drosophila melanogaster with 12 samples.

Results

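A set of 7 digestive enzyme genes, the trypsin gene alphaTry, the Jonah protease genes Jon99Cii, Jon99Ciii and Jon99Fi and the maltase genes Mal-A2, Mal-A5 and Mal-A7, were followed through ATAC-seq counts of Drosophila melanogaster. They are 7 of 13962 protein-coding genes in the Release 6 annotation and were taken with every deposited region that overlapped them or lay within 1000 bp. That gave 8 regions of 6353, of which 7 were labelled fat body and 1 was labelled gut. All 4 groups were adult females of the genotype S106_UASfoxo, in which the steroid RU486 lets the S106 driver switch on a transgene of foxo, a forkhead transcription factor of the insulin pathway. S106 is known to act in the fat body and in the digestive tract of the adult. Switched flies ate 200 µM RU486 for 21 days and food without it for the following 7 days, while control flies are labelled RU486-; the protocol text is the same for every sample. All were reared on 10% yeast and 5% sucrose and mated for 48 h. Fat body and gut gave 3 control and 3 switched libraries each, and how many flies went into a library is not given in the sources used here. Since no group ate RU486 without the transgene, the drug and the induction cannot be told apart. Nothing in the labels says that replicates came from separate cultures, so p-values measure the spread between these libraries, which may be technical.

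Trypsins and Jonah proteases are serine proteases that midgut enterocytes secrete into the gut lumen, where trypsins cut dietary protein after basic residues. Maltases are alpha-glucosidases that split maltose and other small sugars for uptake. All 3 families grew by tandem duplication, so their members stand side by side in the genome and close relatives can share long stretches of sequence. ATAC-seq counts the places where the Tn5 transposase enters open DNA, and a count here is the number of reads in a deposited region. In dissected tissue, fewer cells of a type and less accessible DNA in each cell cannot be told apart.

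Digestive enzyme genes are known as markers of the gut, but the counts of listed markers with a region leaned the other way. Of 14 gut markers, 4 (GATAe and Ptx1, transcription factors of the endoderm, dve and alphaTry itself) had regions labelled fat body, while 0 had a region labelled gut. Of 14 fat body markers, 8 had regions labelled gut, such as the yolk protein gene Yp1, the lipoprotein gene apolpp and the triglyceride lipase gene bmm, and 3 had regions labelled fat body. Among these, Lsp1beta and srp had regions in both tables. The share of all genes with a region was not computed for either table, so these counts lack that background. On assembled chromosomes, 1347 regions labelled fat body and 2002 labelled gut lay within 1000 bp of a gene. Regions labelled fat body had midpoints within 500 bp of a gene end in 14.1% of cases. After moves of 5 or 10 kb that was 12.6% to 13.0%. The tissue names are given as labels throughout. Mitochondrial DNA held 84.4% to 88.6% of counts in control and 75.8% to 83.6% in switched libraries labelled fat body, and 69.2% to 87.6% in those labelled gut. Total counts were 811020 to 1186153 and 99191 to 709659, of which 85187 to 155592 and 16901 to 133466 lay on assembled chromosomes. Both gut libraries numbered 1 were shallow.

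On Release 6 alphaTry (CG18444) spans 11344260 to 11345119 of chromosome arm 2R. The maltase genes lie on the same arm, Mal-A2 (CG8694) at 8453627 to 8455782, Mal-A5 (CG30359) at 8462753 to 8465092 and Mal-A7 (CG11669) at 8468646 to 8471663. On arm 3R, Jon99Ciii (CG31362) spans 29922216 to 29923455, Jon99Cii (CG31034) 29923754 to 29924615 and Jon99Fi (CG18030) 30488963 to 30489895. The members lay in 4 clusters of their families, and neighbouring copies had no region of their own. The members were chosen with earlier results of these data known, so this contrast with their neighbours is a description. The trypsin cluster from lambdaTry to iotaTry (2R, 11336840 to 11357537) holds 13 trypsin genes in 20.7 kb. Its 1 region covered 82 bp inside alphaTry, in the table labelled fat body, and lay within 1000 bp of epsilonTry too. The other trypsin genes of the cluster, such as betaTry, gammaTry and deltaTry, were overlapped by no region of either table. The maltase cluster from Mal-A1 to Mal-A8 (2R, 8449664 to 8473961) holds 8 genes in 24.3 kb. It had 2 regions labelled fat body, inside Mal-A2 and Mal-A7, and 1 labelled gut, between Mal-A4 and Mal-A5. Both Jonah clusters are on chromosome arm 3R. The first (29922216 to 29926189) holds Jon99Ciii, Jon99Cii and Jon99Ci in 3.97 kb and had 3 regions labelled fat body, which covered 17.6% of it and overlapped Jon99Ciii and Jon99Cii. The second (30487016 to 30489895) holds Jon99Fii and Jon99Fi and had 1 region, inside Jon99Fi.

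**Figure D1:**
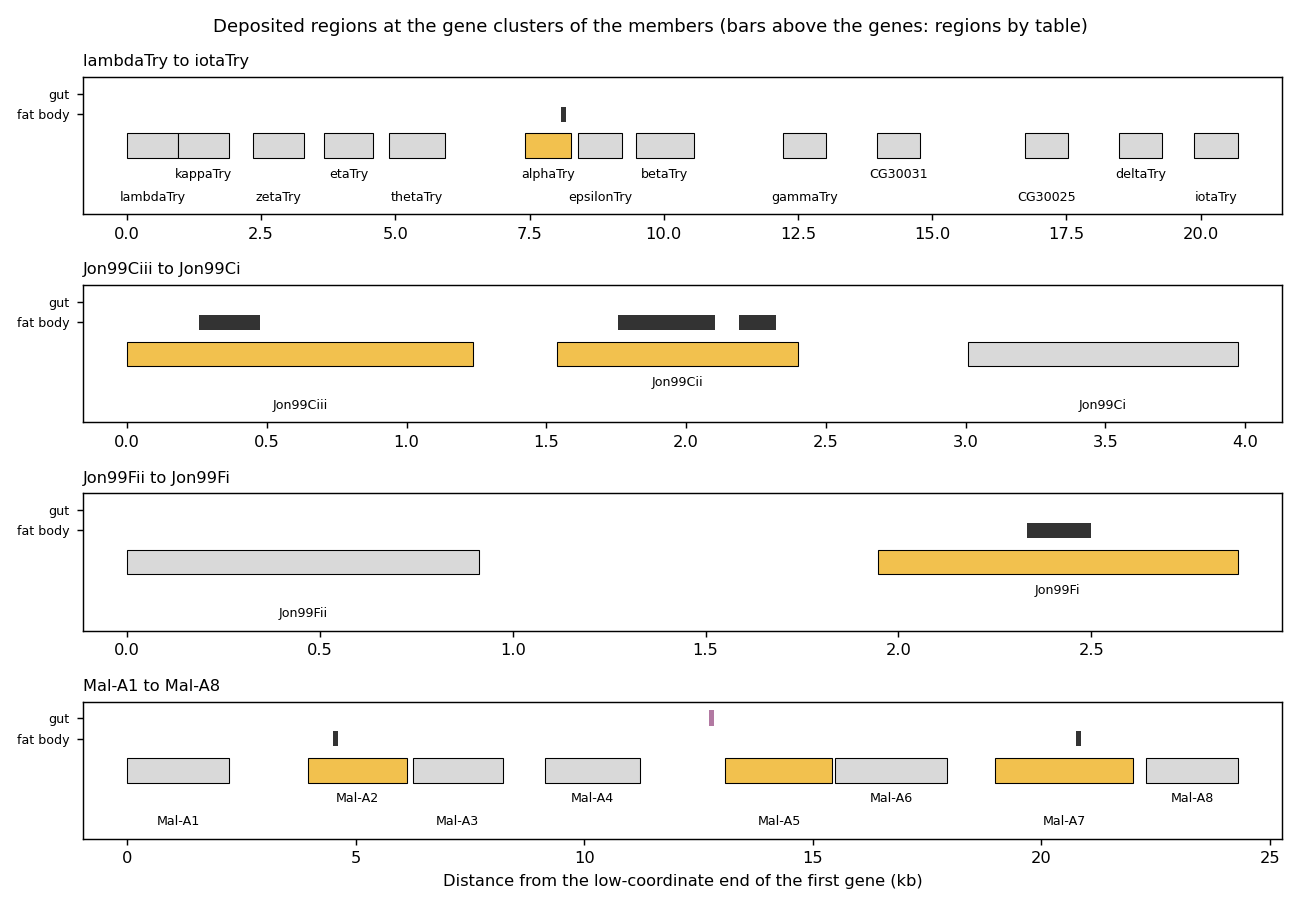
Gene clusters of the members, with distance in kb from the low-coordinate end of the first gene. Boxes are protein-coding genes of the family (yellow, members), and bars above them are deposited regions, black for the table labelled fat body and purple for the table labelled gut. A single region stands among the 13 trypsin genes, and the only region labelled gut lies outside Mal-A5.

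All 7 member regions labelled fat body lay inside a gene, while the region labelled gut lay 250 bp outside Mal-A5. Over the whole table labelled fat body, 92.5% of regions within 1000 bp of a gene overlapped one, and 87.2% did in the table labelled gut. Exons, introns and strand were not used here, so a transcription start cannot be named. The region inside alphaTry and the 134 bp region inside Jon99Cii lay near the high-coordinate end, with midpoints 147.5 bp and 142.5 bp from it. Those of Jon99Fi and Mal-A7 lay towards the middle, at 50.3% and 60.5% of the gene's length from its low-coordinate end. The other region inside Jon99Cii, of 346 bp, lay at 45.4%, and those of Mal-A2 and Jon99Ciii at 27.9% and 29.6%.

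Counts in these regions were low beside the rest of the table. Of the 7 regions labelled fat body, 6 passed the filter on low counts. The exception was a 346 bp region inside Jon99Cii (3R, 29923973 to 29924318) with 1 count in control replicate 3, 1 in switched replicate 1 and 0 in the other 4 libraries. Per kb of region, and as a mean over 6 libraries, the 6 tested regions had levels of 122 (Jon99Ciii) to 386 (Mal-A7) CPM, which are counts scaled by library size with TMM factors. The median of the 1230 tested regions on assembled chromosomes was 547 CPM per kb, and the members stood at its percentiles 3.09 to 29.1. Their lengths were 82 to 220 bp, against a median of 96.5 bp.

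The order of the levels per kb differed between the groups, within a wide spread. In control libraries labelled fat body, Mal-A7 had the highest level, 515 ± 144 CPM per kb (SD, n = 3), followed by Mal-A2 with 355 ± 393. Jon99Ciii had 159 ± 61.7, alphaTry 116 ± 200, Jon99Fi 89.8 ± 83.2 and Jon99Cii 27.8 ± 48.2. In switched libraries Jon99Cii came first with 390 ± 283 CPM per kb, before alphaTry with 259 ± 102, Mal-A7 with 256 ± 186 and Jon99Fi with 238 ± 165. Mal-A2 had 95 ± 49.1 and Jon99Ciii 83.6 ± 30.8. In neither group did neighbours in this order differ by more than the larger of their SDs.

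Switched flies were set against control flies to learn whether accessibility at these genes still differed once induction of foxo had ended. None of the member regions passed the test. In the libraries labelled fat body, edgeR's quasi-likelihood test called 0 of 6 member regions at an adjusted p under 0.05, where the background over all 1674 tested regions was 0.0%. Without adjustment its p was under 0.05 for 0 of 6, against 4.78% of all tested regions. DESeq2 called 0 of 6 as well, against 3.85% of the regions it gave an adjusted p. Its unadjusted p was under 0.05 for 1 of the 7 member regions with a p, a region inside Jon99Cii, against 7.25% of all 3322 regions with a p. Above 0 were 3 members (alphaTry, Jon99Cii and Jon99Fi) and below 0 were 3 (Jon99Ciii, Mal-A2 and Mal-A7). The members' median log2 fold change was 0.10, and that of all tested regions 0.25. With the regions of each gene summed, edgeR called 0 of 6 members (0.0% of 1512 genes or single regions tested), with 0 at an unadjusted p under 0.05, against 4.89% of all sums. DESeq2 called 0 of these 6 sums, against 3.8% of all, and gave 1 (Jon99Cii) an unadjusted p under 0.05, against 7.24% of all.

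Among the trypsins, alphaTry was the only gene with a region of its own (2R, 11344931 to 11345012). Control replicates 1 to 3 gave 0, 0 and 32 counts there, and switched replicates 1 to 3 gave 15, 26 and 31. All 3 switched libraries held counts, but control replicate 3 had more than any of them, so the groups overlapped. A count of 0 allows up to 3.79 CPM in control replicate 1 and 3.73 CPM in control replicate 2, by counting error alone. The level was 9.49 ± 16.4 CPM for control against 21.2 ± 8.37 CPM for switched flies (SD, n = 3). The log2 fold change was 1.13 ± 1.80 (SE; 95% interval -2.89 to 5.15), with an edgeR adjusted p of 0.984. Without control replicate 3 it was 7.46, with an edgeR adjusted p of 0.396; both remaining control libraries had 0 counts, so that value depends on the prior count and is no bound. The alphaTry sequence resembles other trypsin genes of the cluster, and how reads that match several copies were counted is not given in the sources used here.

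Jon99Cii and Jon99Ciii are neighbours 298 bp apart and close relatives, both encoding secreted serine proteases, and their regions lay on either side of 0. The tested region inside Jon99Cii (3R, 29924406 to 29924539, 134 bp) gave 0, 9 and 0 counts across the control replicates, against 43, 89 and 35 across the switched ones. Every switched library stood above every control library. Its level was 3.73 ± 6.46 CPM for control against 52.3 ± 38.0 CPM for switched flies (SD, n = 3). The log2 fold change was 3.78 ± 2.01 (SE; 95% interval -0.71 to 8.27), with an edgeR adjusted p of 0.984 (unadjusted 0.0896). DESeq2 gave an adjusted p of 0.353 (unadjusted 0.0349). An exact two-sided permutation test of the CPM gave p = 0.1, the smallest that 3 against 3 libraries allow. Such a separation with switched libraries higher was found in 10.7% of the 1674 tested regions, against 1 of 6 members, and the opposite separation in 5.5%, against 0 of 6 members. The log2 fold change was 8.82 without control replicate 2, the only control library with counts there. That value depends on the prior count too, and its edgeR adjusted p was 0.307.

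The region inside Jon99Ciii (3R, 29922473 to 29922692) was read in all 6 libraries, as were 47.6% of tested regions on assembled chromosomes. Control replicates gave 28, 39 and 24 counts and switched replicates 26, 10 and 31. The groups overlapped, at 35.1 ± 13.6 CPM for control against 18.4 ± 6.78 CPM for switched flies (SD, n = 3). The log2 fold change was -0.92 ± 1.32 (SE; 95% interval -3.88 to 2.03; edgeR adjusted p = 0.984). Taken as a sum over every region within 1000 bp, which adds those inside Jon99Cii, the gene's log2 fold change turned to 0.80 ± 1.16 (edgeR adjusted p = 0.976).

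Within a library, the share of Jon99Cii in the counts of both neighbouring regions does not depend on scaling. Control replicates 1 to 3 had shares of 0%, 18.8% and 0%, and switched replicates 1 to 3 had 62.3%, 89.9% and 53.0%. The counts behind these shares were 24 to 99 a library. The highest 95% Clopper-Pearson bound among control libraries was 32.6%, in replicate 2, and the lowest among switched libraries was 40.3%, in replicate 3. Such intervals hold counting error alone, and PCR copies of a fragment would be counted along with it if they were not removed. The pair was picked after its values were seen, so its shares are a description. Among 102 adjacent pairs of tested regions with a gap of up to 2000 bp, 21.6% had shares that did not overlap between the groups. By contrast Mal-A7 took 39.2%, 84.9% and 84.7% of the counts of Mal-A2 and Mal-A7 across control replicates, against 74.5%, 92.9% and 43.8% across switched ones, which overlapped.

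Jon99Fi, the remaining Jonah member, had a region in its middle (3R, 30489349 to 30489516) that also lay within 1000 bp of PH4alphaSG2. It was read 14, 0 and 31 times across control replicates and 47, 64 and 18 times across switched ones. Switched replicates 1 and 2 were above all control libraries and switched replicate 3 was not. The level was 15.1 ± 14 CPM for control against 40.0 ± 27.7 CPM for switched flies (SD, n = 3), with a log2 fold change of 1.39 ± 1.70 (SE; 95% interval -2.40 to 5.19; edgeR adjusted p = 0.984). Its neighbour Jon99Fii, a close copy, had no region, and reads shared between both copies could not be told apart here.

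Both maltase regions labelled fat body had fold changes below 0. Mal-A2 (2R, 8454181 to 8454277) was read 62, 8 and 17 times across control replicates, against 12, 4 and 18 times across switched ones. Control replicate 1 stood far above the other 5 libraries, which overlapped. The level was 34.5 ± 38.1 CPM for control against 9.21 ± 4.76 CPM for switched flies (SD, n = 3). The log2 fold change of -1.88 ± 1.45 (SE; 95% interval -5.13 to 1.36; edgeR adjusted p = 0.984) was -0.43 without control replicate 1.

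Mal-A7 (2R, 8470410 to 8470532) gave counts of 40, 45 and 94 for control replicates 1 to 3 and of 35, 52 and 14 for switched ones. It was the best covered member, with 280 counts in all, and the groups overlapped through switched replicate 2. The level was 63.4 ± 17.7 CPM for control against 31.5 ± 22.9 CPM for switched flies (SD, n = 3), with a log2 fold change of -1.01 ± 1.29 (SE; 95% interval -3.89 to 1.87; edgeR adjusted p = 0.984).

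**Figure D2:**
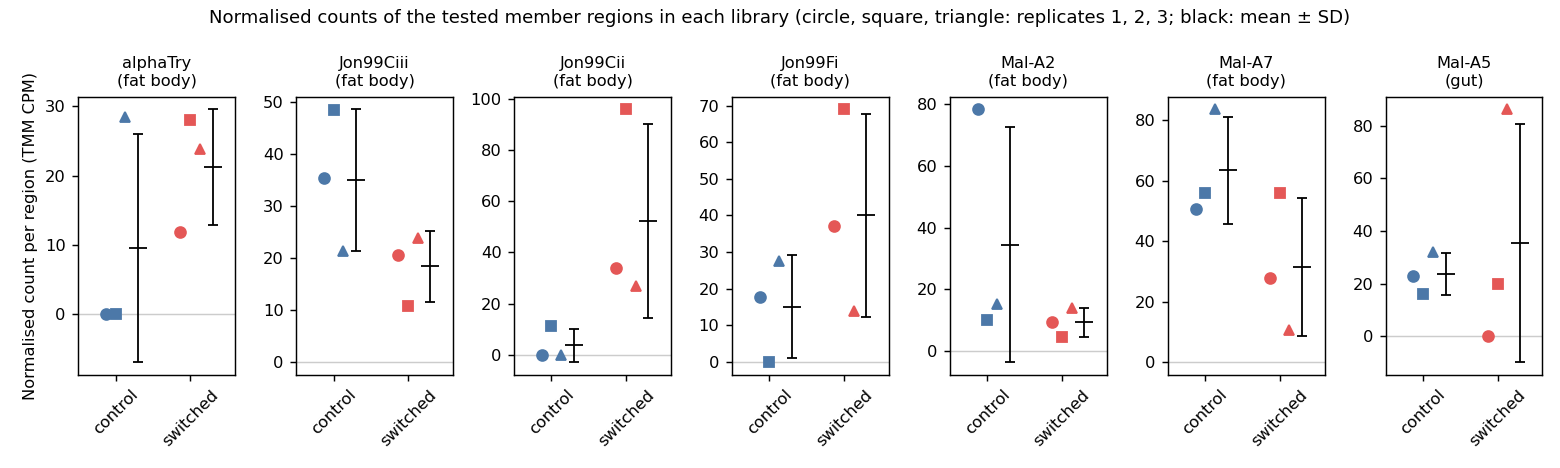
Normalised counts (TMM CPM) of the 7 tested member regions in each library, with control in blue, switched in red and the mean ± SD (n = 3) in black; each panel has its own axis. Only for Jon99Cii do all switched libraries lie above all control libraries, as in 10.7% of the 1674 tested regions labelled fat body. A single control library sets the control means of alphaTry (replicate 3), Jon99Cii (replicate 2) and Mal-A2 (replicate 1).

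In the libraries labelled gut, the maltase gene Mal-A5 was the only member with a region (2R, 8462396 to 8462503), read at 70 counts in all. Control replicates held 4, 8 and 13 of these, and switched replicates 0, 13 and 32. Both the lowest and the highest library were switched ones, so the groups overlapped. Full separation was found with switched libraries higher in 3.6% and lower in 7.25% of regions tested there. A count of 0 in the shallow switched replicate 1 allows up to 17.0 CPM, which is within the range of the other libraries. The level was 23.6 ± 8.05 CPM for control against 35.4 ± 45.1 CPM for switched flies (SD, n = 3). The log2 fold change was 0.59 ± 1.83 (SE; 95% interval -3.20 to 4.39), with adjusted p-values of 0.999 by edgeR and by DESeq2. It was -1.06 without switched replicate 3 and -0.27 with the replicate number as a block, so it has no stable sign. At an unadjusted p under 0.05 edgeR gave 0 of 1 member region and 1.54% of 1944 tested regions, and at an adjusted p under 0.05 both edgeR and DESeq2 gave 0 (0.0%). At 273 CPM per kb over 6 libraries it lay below the table's median of 382.

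**Figure D3:**
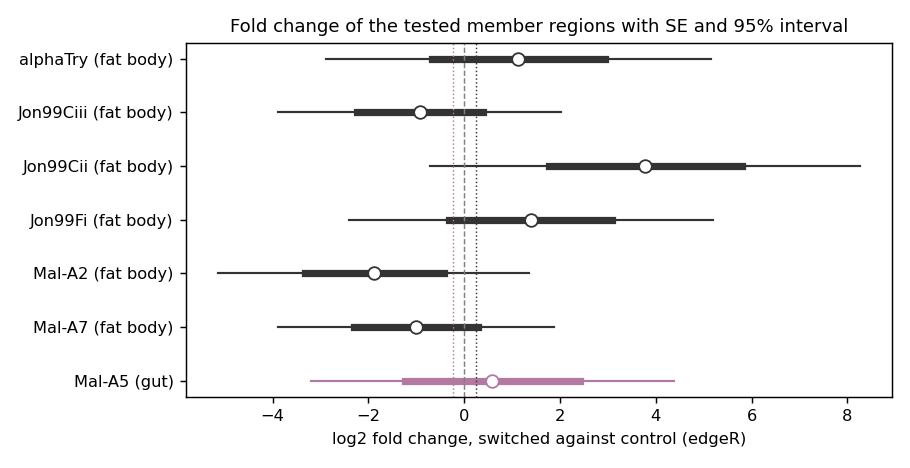
Log2 fold changes of switched against control flies for the 7 tested member regions (edgeR), with the SE as thick and the 95% interval as thin bars; black, labelled fat body; purple, labelled gut. Dotted lines mark the medians of all tested regions, 0.25 and -0.24. Every interval includes 0, and values run from -1.88 for Mal-A2 to 3.78 for Jon99Cii.

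No member region labelled fat body overlapped a region labelled gut, so the difference between tissues in the response to past induction could not be tested for any member. The tables shared 857 merged regions, of which 615 were tested for that interaction with edgeR, with 0 called and 27 at an unadjusted p under 0.05.

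Summed by family, the Jonah members had a higher mean and the maltase members a lower mean in switched than in control libraries labelled fat body. The region of Jon99Ciii, a Jonah member, was below 0 like those of the maltases, and no member region or sum was called. The 4 regions of the Jonah members held 42, 48 and 56 counts across control replicates, against 117, 163 and 84 across switched ones. The 2 regions of the maltase members held 102, 53 and 111 across control replicates, against 47, 56 and 32 across switched ones. As CPM, the Jonah sum was 54.2 ± 5.04 for control against 111 ± 57.8 for switched flies, and the maltase sum 97.8 ± 31.5 against 40.7 ± 18.1 (SD, n = 3). Neither overlapped between the groups, and no share over comparable sums of other regions was computed. Without Jon99Cii the Jonah sums overlapped, at 50.2 ± 2.54 CPM against 58.4 ± 21.1 CPM (SD, n = 3). Overlap depended on the scale: as shares of counts on assembled chromosomes the full Jonah sums overlapped, and as CPM of raw library totals the maltase sums did. On raw library totals the Jonah sums without Jon99Cii did not overlap, at 40.6 ± 10.0 CPM for control against 70.4 ± 8.69 CPM for switched flies (SD, n = 3).

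The ratio of both families within a library is free of scaling. Jonah members held 29.2%, 47.5% and 33.5% of the counts of both families across control replicates, against 71.3%, 74.4% and 72.4% across switched ones. The mean was 36.7% ± 9.59 for control and 72.7% ± 1.57 for switched flies (SD, n = 3), and the groups did not overlap. Without Jon99Cii the shares were 34.9% ± 6.79 and 59.4% ± 2.17, and without Jon99Fi or Mal-A2 the groups stayed apart too. Without Mal-A7 they overlapped, at 67.6% ± 24.0 and 90.2% ± 7.64. This ratio was formed after the values were seen and is a description of these libraries, with no test; how often other regions combined in this way would separate is not known. All members together held 0.156% ± 0.0336 of the counts on assembled chromosomes for control against 0.150% ± 0.0714 for switched flies (SD, n = 3), a ratio of 0.966. Of all counts of the table, mitochondrial ones included, they held 0.0133% ± 0.00511 against 0.0205% ± 0.00392 (SD, n = 3), a ratio of 1.54.

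**Figure D4:**
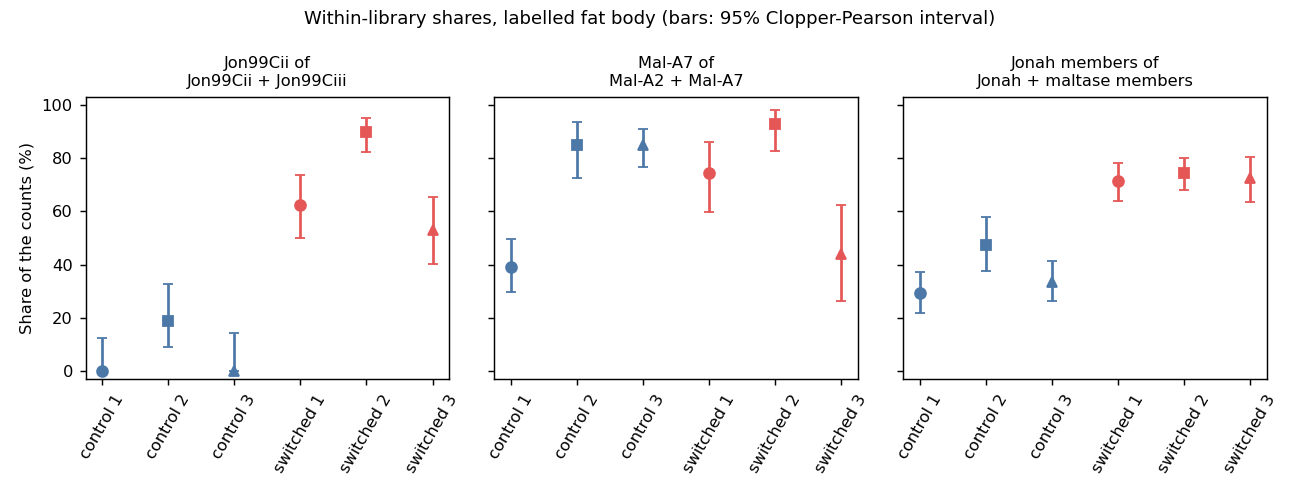
Within-library shares of counts in percent, labelled fat body, with 95% Clopper-Pearson intervals for counting error. Left, Jon99Cii among the counts of Jon99Cii and Jon99Ciii; middle, Mal-A7 among those of Mal-A2 and Mal-A7; right, the Jonah members among those of the Jonah and maltase members. Switched libraries lie above control libraries on the left and right, and the groups overlap in the middle. The shares on the left and right were chosen after the values were seen and are a description.

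Of other measures in the same libraries, some separated the groups and others overlapped. The mitochondrial share was lower in every switched library labelled fat body, as given above. Of the muscle markers 1 of 12 (sls, a titin-like gene) had regions, while Mhc, Act88F and the others had none of their own. The regions of sls held 0.0236% to 0.0869% of counts on assembled chromosomes in control and 0.148% to 0.243% in switched flies. For single regions, full separation with switched libraries higher was found in 10.7% of the 1674 tested. This is 1 gene, and muscle content was not tested. Gut markers overlapped, at 0.131% to 0.548% and 0.249% to 0.390%, with cad, lab, esg and the other markers outside the 4 named above without a region. Fat body markers overlapped as well, at 0.0227% to 0.230% and 0.217% to 0.313%, with Yp1 and apolpp without a region there. Haemocyte markers (eater and srp, 2 of 6) overlapped at 0% to 0.0869% and 0.0696% to 0.294%. Oenocyte, neuron, ovary and Malpighian tubule markers had no region of their own in that table. The part of these measures in the values of the members was not tested.

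Of the trypsin, Jonah and maltase genes outside the members, only Jon66Ci had a region of its own. The members were chosen with earlier results of these data known, and the share of all genes with a region was not computed. Of 14 trypsin genes 1 had a region of its own labelled fat body and 0 had one labelled gut. Of 17 Jonah genes 4 had one labelled fat body and 0 labelled gut, and the one that is no member was Jon66Ci. Its 70 bp region (3L, 8391912 to 8391981) gave 0, 6 and 0 counts across control replicates and 8, 0 and 68 across switched ones, mostly from switched replicate 3, and did not pass the filter on low counts. Of 11 maltase genes 2 had a region labelled fat body and 1 labelled gut. Of 15 further digestive enzymes, among them amylases and lysozymes, only the amylase gene Amy-p had one, with 1 count in control replicate 3. None of the tested sums of these lists was called by edgeR, with 1 trypsin, 3 Jonah and 2 maltase genes tested in the table labelled fat body and 1 maltase gene in the table labelled gut.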

How the data were processed

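Washed nuclei from dissected fat body and gut went through Tn5 tagmentation and PCR, per the labels' protocols. The deposited values are raw counts of reads, with a table and regions of its own for each tissue. The submitters' processing notes name FastQC, Trimmomatic, MACS2, featureCounts and DESeq2, without versions or roles. Not given in the sources used here are the aligner, the build, pooling for peak calling, removal of duplicates, treatment of reads with several matches and any Tn5 shift. Duplicates would widen the spread between libraries, and discarded or randomly placed multiple matches would change counts at gene copies.

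Regions were placed on Release 6, which was inferred from the data: regions labelled gut had their midpoint within 500 bp of a gene end in 44.7% of cases, and in 19.0% to 21.8% after moving them by 5 or 10 kb. Those labelled fat body gave 14.1%, and 12.6% to 13.0% after moves, so their build rests on sharing coordinates with the other table: 410 overlapped a region labelled gut, and 15 to 21 did after moves. Table coordinates are those deposited. A region was assigned to the protein-coding gene it overlaps, or else to the nearest within 1000 bp. Each table was fitted whole with edgeR 4.0.16 in R 4.3.3 (filterByExpr, minimum count 10 and total 15; TMM factors; quasi-likelihood F test; Benjamini-Hochberg over all tested regions, threshold 0.05), keeping 1674 of 3447 and 1944 of 2906 regions. The common dispersion was 1.40 and 1.38. DESeq2 1.42.0 was the alternative. CPM used TMM factors, and a count of 0 was given a limit of 3 counts. Scripts were tested on simulated data. No libraries were merged, since any pair from the same tissue differed by more than sampling noise.

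Same-numbered control and switched libraries labelled gut had deviations from their group means that correlated at 0.26, 0.191 and 0.108. Each was over the bound of 0.1, but the 0.26 joins both shallow libraries. Control replicate 3 correlated as much with switched replicate 2 (0.109), and control replicate 2 with switched replicate 3 at 0.0972. The main test was unpaired in both tables, and the replicate number entered as a block in an alternative fit only. Any pairing rests on the counts alone, because no label states what same-numbered libraries have in common. In the libraries labelled fat body the correlations were 0.00426, -0.0254 and -0.0603.

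The members, lists and tests were chosen with earlier results of these data known. Named genes were all members, listed family genes with a region, family neighbours within 20 kb of a member, and the 3 regions most correlated with each tested member. Other genes, such as neighbours and markers, are named to identify positions and list members. Promoter motifs were planned and not searched, since no sequence was used here. Of the 15 further digestive enzymes listed, 14 were found in the annotation.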

Additional observations from a re-analysis of the deposited data

How the results depend on the processing

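No alternative called a member region or a member sum: edgeR and DESeq2 gave 0 in both tables, also with regions within 2000 bp and without each library in turn (0 to 0). With regions overlapping the gene itself, 0 were called among those labelled fat body, and none labelled gut was left to test. Over all regions labelled fat body, DESeq2 called 79, and edgeR with no count filter called 19, against 0. Of 175 recomputed fold changes of members, 170 kept their sign and 5 reversed: Mal-A5 with the replicate block (-0.27, as a sum -0.24) and without switched replicate 3 (-1.06, as a sum -1.07), and Jon99Ciii as a sum with each region counted for every gene within 1000 bp (0.80), an alternative added after the data were seen. The cause was not tested for the first of these. The replicate block changed no call. Leaving out 1 library at a time moved alphaTry from 0.57 to 7.46, Jon99Cii from 3.03 to 8.82, Jon99Fi from 0.75 to 2.21, Jon99Ciii from -1.22 to -0.60, Mal-A2 from -2.31 to -0.43, Mal-A7 from -1.71 to -0.63 and Mal-A5 from -1.06 to 1.19. As sums the ranges were 0.55 to 7.46, 2.90 to 6.44, 0.72 to 2.21, -1.24 to -0.61, -2.31 to -0.45, -1.74 to -0.66 and -1.07 to 1.15 in the same order. Library totals alone in place of TMM moved the median log2 fold change of regions labelled fat body from 0.25 to 0.93, with 75.2% instead of 57.3% above 0; Jon99Ciii was then at -0.10 and Jon99Cii at 4.43. The members' share in switched over control flies was 0.966 of counts on assembled chromosomes and 1.54 of all counts. With regions on assembled chromosomes alone, Mal-A5 did not pass the filter and gave no value. Without both shallow gut libraries its log2 fold change was 1.12. Each tested member region held 70 to 280 counts over 6 libraries, and the main edgeR fit called 0 regions of either table. The part of depth and of the spread between libraries in this was not tested.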

Other observations

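The regions whose counts followed the members most closely were sought by Pearson correlation of log2(TMM CPM + 1) over the 6 libraries of a table. This is a description without a test, and the points share libraries and depth. Those named are the 3 highest among all tested regions, 1674 labelled fat body and 1944 labelled gut. How high the highest r of other regions runs was not computed, so these values mark no partners of the members. For Jon99Cii these were an unplaced scaffold region (r = 0.994), CG31626 and the potassium channel gene Shab (both 0.982). For Jon99Fi they were hang (0.991), the translation factor gene eIF5B (0.988) and an unplaced region (0.986). For Jon99Ciii they were yellow-g2 (0.95), CG12708 (0.94) and an unplaced region (0.934). For alphaTry they were CG13492 (0.996) and regions without a gene on 3L (0.997) and 3R (0.993). For Mal-A7 they were NfI (0.979), an unplaced region (0.976) and Ranbp21 (0.972), and for Mal-A2 Nlg4 (0.918), ORY (0.905) and an unplaced region (0.881). The ORY region is placed on the Y chromosome, while the flies were females, and why reads were counted there was not tested. In the table labelled gut, Mal-A5 was followed by CG7458 (0.994), the actin gene Act5C (0.988) and the cell death gene hid (0.987). None of these is a digestive enzyme of the lists. Among the members labelled fat body themselves, r ran from -0.862 (Jon99Ciii and Jon99Fi) to 0.692 (alphaTry and Jon99Fi).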
